A study of Mus musculus with 6 samples.

Results

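Lysosomal hydrolases, lysosomal membrane proteins and the regulators Tfeb and Tfe3 were followed as a list of 36 genes, with cathepsins and proton pump subunits left out. Members were chosen by name and function, with earlier results of these data known. Each gene was represented by its feature, the set of probes read as 1 value, with the highest mean log2 value over the 6 arrays. Of the 36 genes, 35 had a feature annotated to them alone, among 19930 genes in all. The receptor gene M6pr shares its only feature with the pseudogene M6pr-ps and was not counted as measured. H10 and C8 are lines grown from RAW264.7 mouse macrophages that carry a retroviral Lifeact-mEGFP construct and were selected in puromycin as limiting-dilution clones. H10 forms multinucleated osteoclasts and C8 does not. Total RNA of both lines was hybridized after 2 days with recombinant soluble RANKL (sRANKL) at 60 ng/mL, on 3 arrays for each line. No unstimulated array was analysed here, so every value is from RANKL-treated cells, and each phenotype rests on 1 line.

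Lysosomes are acidic organelles in which hydrolases break down sugars, sulfated glycans, lipids and proteins. Most of these enzymes receive a mannose 6-phosphate tag in the Golgi and are carried onward by mannose 6-phosphate receptors. Transcription factors of the MiT/TFE family, among them TFEB and TFE3, switch on many lysosomal genes. An osteoclast directs lysosome-related vesicles to the bone surface and releases their enzymes into the resorption pit.

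The values were log2 values normalized by the authors with RMA, and differences are given as H10 minus C8. It is not stated that the 3 samples of a line were cultured apart, so the spread behind each p-value may be technical. Of 9 macrophage markers measured, Adgre1 was higher in H10 cells (log2 difference 2.02, adjusted p = 0.00114 from limma) and 8 did not pass the test. At an unadjusted p under 0.05, 4 of the 9 were higher and 0 lower, against 6.1% and 7.67% of all genes. The mean log2 level of the 9 was 11.67 to 11.77 in H10 against 11.28 to 11.36 in C8 samples. Of 9 osteoclast markers, 6 were higher in H10 cells (1.85% of all genes were) and 3 did not pass. A negative difference was seen for 1 of the 9, Mmp9 (log2 difference -0.34, adjusted p = 0.534 from limma). The mean log2 level of all 9 ran from 10.9 to 11.1 across H10 and from 9.59 to 9.92 across C8 samples. Of 15 markers of lymphocytes, neutrophils, fibroblasts, endothelium and epithelium, 0 passed the test (0 higher and 1 lower at an unadjusted p under 0.05), and their mean level was 6.97 to 7.13 over the 6 arrays. In such bulk RNA, a larger share of cells that express a gene and more of its RNA in each cell cannot be told apart. What part the macrophage and osteoclast markers have in the lysosomal differences was not tested.

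Of the 35 lysosomal genes, 4 rose in H10 cells, 1 fell and 30 did not pass the test, at an adjusted p under 0.05 by limma over all features. The 4 were Arsb, Igf2r, Npc1 and Npc2, and the fall was that of Tfe3. The share that rose was 11.4%, against 1.85% of all genes, and the share that fell was 2.86%, against 1.04%. All 35 genes had a mean above the median of all values (7.7), from 8.86 to 13.77. Among all genes with a mean above 7.7, 2.94% rose and 1.67% fell. At an unadjusted p under 0.05, 14 lysosomal genes were higher and 3 lower, against 6.1% and 7.67% of all genes. Among all genes above 7.7, 9.26% were higher by that rule, and 1228 of 11189 were lower. The difference was positive for 24 of the 35 genes and for 38.3% of all genes. Its median was 0.16 for the lysosomal genes and -0.03 for all genes, and 0.09 for the 30 that did not pass. All H10 arrays lay above all C8 arrays for 14 of the 35 genes (7.74% of all genes, 11.2% of those above 7.7) and below them for 3 (12.7% and 16.5%). Members were chosen with earlier results of these data known, so these shares describe the list and do not test it.

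**Figure D1:**
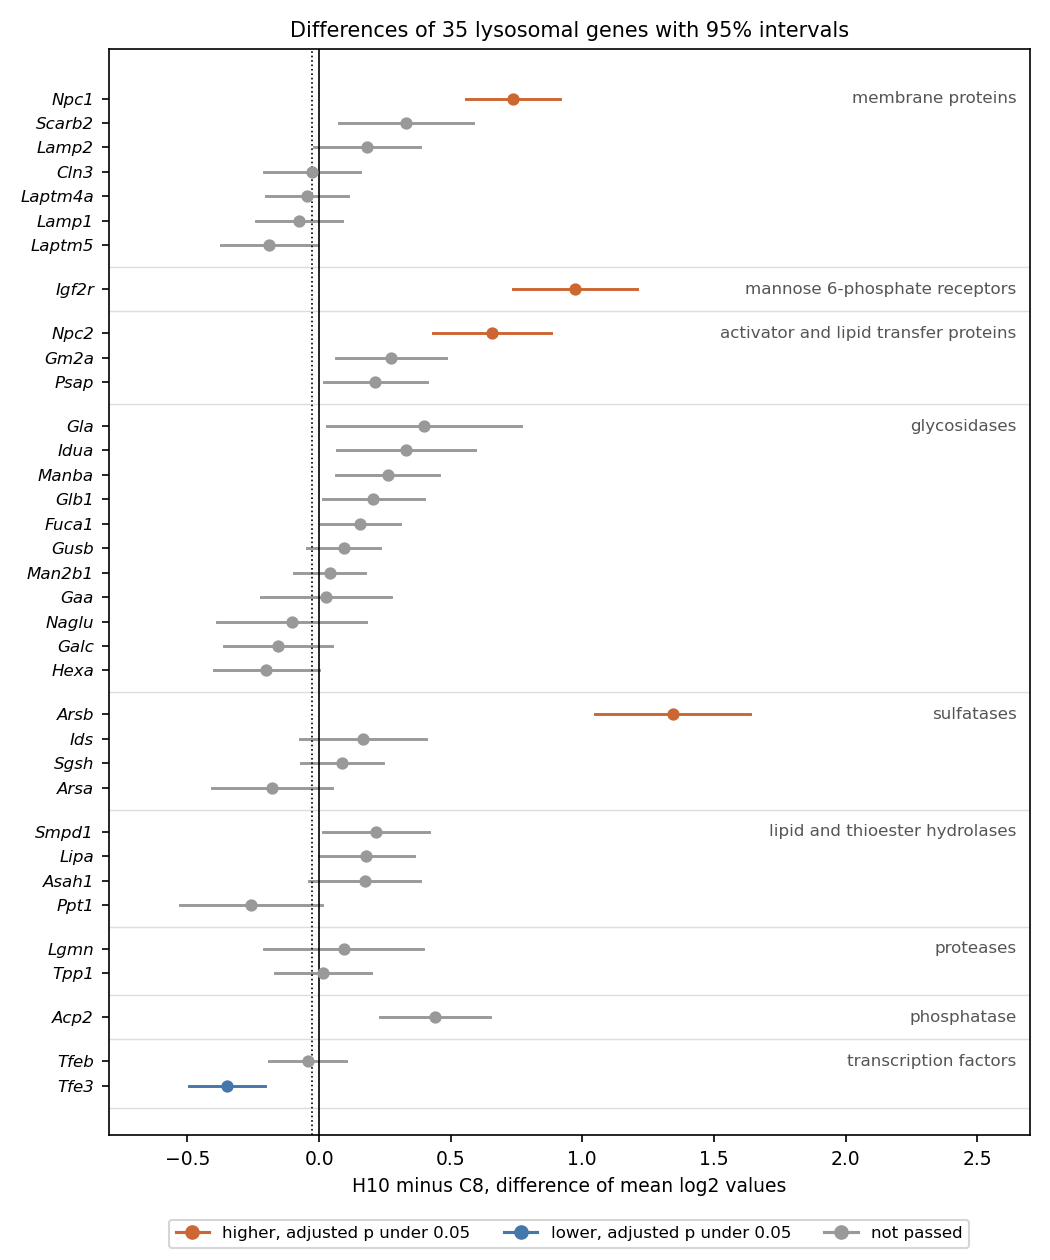
Difference of mean log2 values, H10 minus C8, for each of 35 lysosomal genes grouped by role, with 95% intervals from limma as horizontal lines, a solid line at 0 and a dotted line at the median of all genes (-0.03). The 4 genes that rose lie between 0.66 and 1.34, Tfe3 lies at -0.35, and the 30 others lie between -0.26 and 0.44.

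Arsb encodes arylsulfatase B, which removes sulfate from dermatan and chondroitin sulfate, and it had the largest difference of the list. Its log2 values were 11.56, 11.81 and 11.92 on the H10 arrays, against 10.52, 10.23 and 10.51 for C8. The lowest H10 array was thus more than 1 log2 unit above the highest C8 array. H10 cells averaged 11.76 ± 0.18 (SD, n = 3) against 10.42 ± 0.16 (SD, n = 3) for C8, which is a 2.54-fold difference (log2 difference 1.34, standard error 0.12, adjusted p = 0.00477 from limma). Arsb was the only lysosomal gene of the list with a second feature, and on that feature it had a log2 difference of 1.14 (standard error 0.10, adjusted p = 0.00398). Of the 4 sulfatase genes, 1 rose (25%), against 1.85% of all genes and 2.94% of genes with a mean above 7.7. The other 3 sulfatase genes had smaller differences that did not pass. Ids, whose product acts on heparan and dermatan sulfate, had a log2 difference of 0.17 (95% interval -0.07 to 0.41). Sgsh, which encodes the sulfamidase of heparan sulfate breakdown, had 0.09 (-0.07 to 0.24). Arsa, the sulfatase of the myelin lipid sulfatide, had -0.18 (-0.41 to 0.05).

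Igf2r encodes the large, cation-independent mannose 6-phosphate receptor, which carries tagged hydrolases and also takes up IGF2. Its log2 values were 12.02, 11.92 and 12 on the H10 arrays, against 11.19, 10.99 and 10.84 for C8. All H10 values lay above all C8 values, and the C8 arrays were the more spread. H10 cells averaged 11.98 ± 0.05 (SD, n = 3) against 11.01 ± 0.18 (SD, n = 3) for C8, which is a 1.96-fold difference (log2 difference 0.97, standard error 0.10, adjusted p = 0.00652 from limma).

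**Figure D2:**
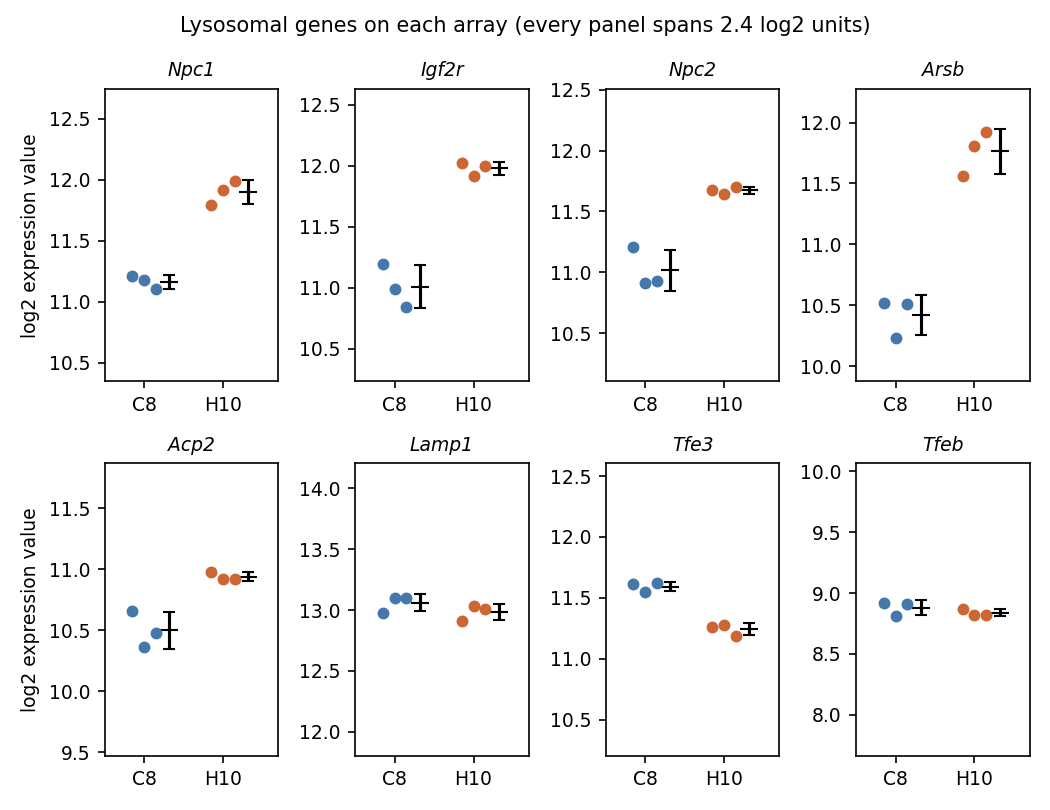
Log2 expression values of 8 lysosomal genes, with 1 point per array, the mean and SD of each line as lines (n = 3) and an equal span of the axis in every panel. The H10 points lie above the C8 points for Npc1, Igf2r, Npc2, Arsb and Acp2 and below them for Tfe3, while those of Lamp1 and Tfeb overlap.

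Genes that place the mannose 6-phosphate tag and sort enzymes were taken as a separate list of 19, of which 1 rose, 1 fell and 17 did not pass. The rise and the fall are each 5.26% of the list, where 1.85% of all genes rose and 1.04% fell. Among genes with a mean above 7.7, 2.94% rose and 1.67% fell. Gnptab encodes the catalytic subunits of the phosphotransferase that starts the tag. Its log2 values were 12.33, 12.18 and 12.31 in H10 cells, against 11.51, 11.41 and 11.41 in C8 cells. With no overlap, it was 1.78-fold higher in H10 cells (log2 difference 0.83, standard error 0.07, adjusted p = 0.00345 from limma). Gnptg, the other subunit gene of that enzyme, had a log2 difference of 0.14 (adjusted p = 0.516), and Nagpa, which uncovers the tag, had -0.17 (adjusted p = 0.513). Sort1 encodes sortilin, a sorting receptor that needs no such tag. Its values were 8.72, 8.44 and 8.54 in H10 cells, against 9.58, 9.32 and 9.15 in C8 cells, so that the direction was opposite to that of Igf2r. Sort1 was 1.72-fold lower in H10 cells (log2 difference -0.78, standard error 0.13, adjusted p = 0.0363 from limma). That call did not pass without any 1 of the 6 arrays (adjusted p = 0.0556 to 0.153) or with median centring (0.0523). Of the genes that did not pass, Lrp1, an endocytic receptor, and Ap1s2, a subunit of an adaptor of clathrin coats, had the largest differences, 0.32 (adjusted p = 0.184) and 0.22 (adjusted p = 0.673).

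**Figure D3:**
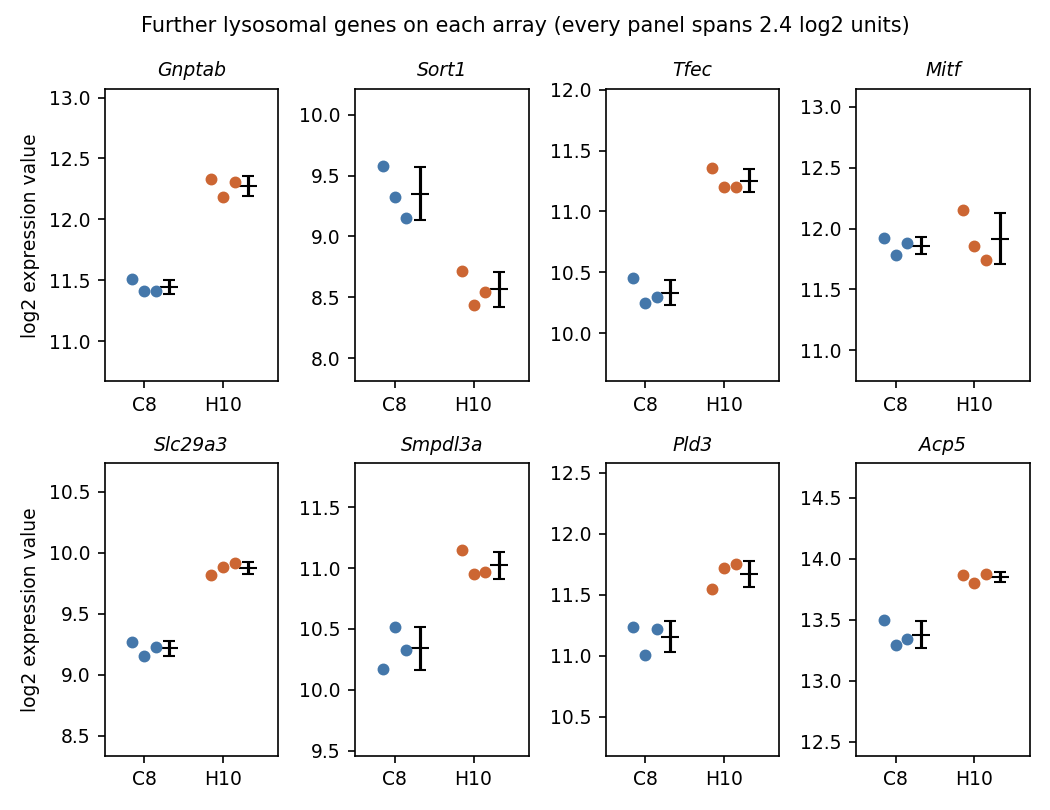
Log2 expression values of 8 genes from the further lists, drawn 1 point per array with line means and SDs (n = 3), all panels spanning an equal range. H10 points lie above C8 points for Gnptab, Tfec, Slc29a3, Smpdl3a, Pld3 and Acp5, below them for Sort1, and among them for Mitf.

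Npc1 and Npc2, whose products pass cholesterol out of the lysosome and whose loss gives Niemann-Pick disease type C, were both higher in H10 cells. Npc1, the membrane protein of the pair, had log2 values of 11.79, 11.92 and 11.99 on the H10 arrays, against 11.21, 11.18 and 11.1 for C8. H10 cells averaged 11.90 ± 0.10 (SD, n = 3) against 11.16 ± 0.06 (SD, n = 3) for C8, which is a 1.67-fold difference (log2 difference 0.74, standard error 0.07, adjusted p = 0.00657 from limma). Npc2, the soluble cholesterol carrier, had 11.68, 11.64 and 11.7 in H10 cells, against 11.21, 10.91 and 10.93 in C8 cells. For both genes all H10 arrays lay above all C8 arrays. Npc2 was 1.58-fold higher (log2 difference 0.66, standard error 0.09, adjusted p = 0.0220 from limma), and this call was lost when any single array but C8 replicate 1 was left out (adjusted p = 0.0770 to 0.116). Soluble activator proteins present lipids to the hydrolases. Gm2a, the activator for GM2 ganglioside, had a log2 difference of 0.27 (95% interval 0.06 to 0.48, adjusted p = 0.258). Psap, the precursor of the saposins, had 0.21 (0.02 to 0.41, adjusted p = 0.367). H10 arrays lay above C8 arrays without overlap for Gm2a and Psap too.

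Lamp1 and Lamp2, which encode the abundant glycoproteins of the lysosomal membrane, were among the 6 of 7 membrane protein genes that did not pass the test. The 1 that rose, Npc1, is 14.3% of the 7, against 1.85% of all genes and 2.94% of genes with a mean above 7.7. Lamp1 had log2 values of 12.91, 13.03 and 13.01 in H10 cells, against 12.98, 13.1 and 13.1 in C8 cells. Lamp2 had 12.57, 12.76 and 12.73 in H10 cells, against 12.39, 12.59 and 12.53 in C8 cells. The lines overlapped for both genes. The log2 difference of Lamp1 was -0.08 (95% interval -0.24 to 0.09, adjusted p = 0.791), and that of Lamp2 was 0.18 (-0.02 to 0.38, adjusted p = 0.476). Scarb2, which encodes LIMP-2, the carrier of glucocerebrosidase, had 0.33 (0.08 to 0.58, adjusted p = 0.263), and its H10 arrays all lay above its C8 arrays. Laptm5, a lysosomal protein of blood cells that dampens receptor signalling, had -0.19 (-0.37 to -0.01, adjusted p = 0.399), and its H10 arrays all lay below its C8 arrays. Laptm4a had -0.05 (-0.20 to 0.11), and Cln3, the gene of juvenile Batten disease, had -0.03 (-0.21 to 0.16).

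Of 11 glycosidase genes, 0 passed the test, and 5 were higher and 1 lower at an unadjusted p under 0.05 by limma. Of all genes, 6.1% were higher and 7.67% lower by that rule. Among genes with a mean above 7.7, 9.26% were higher, and 1228 of 11189 were lower. Gla, the α-galactosidase that is deficient in Fabry disease, had the largest difference of them. Its log2 values were 12.18, 12.67 and 12.63 in H10 cells, against 11.92, 12.1 and 12.26 in C8 cells, with an overlap at H10 replicate 1. The log2 difference was 0.40 (95% interval 0.03 to 0.77, adjusted p = 0.372). Idua, the iduronidase of heparan and dermatan sulfate breakdown, had 0.33 (0.07 to 0.59), and Manba, the β-mannosidase, had 0.26 (0.07 to 0.45). The β-galactosidase gene Glb1 had 0.21 (0.01 to 0.40) and the fucosidase gene Fuca1 had 0.16 (0.01 to 0.31). H10 arrays lay above C8 arrays without overlap for these last 4 genes and for Gusb, and below them without overlap for Galc. Of all genes, 7.74% lay above and 12.7% below without overlap, and of those with a mean above 7.7, 11.2% and 16.5%. The β-glucuronidase gene Gusb, the α-mannosidase gene Man2b1 and Gaa, which encodes the acid α-glucosidase that degrades glycogen, had 0.09, 0.04 and 0.03. Naglu, which removes N-acetylglucosamine from heparan sulfate, and Galc, the galactosylceramidase, had -0.10 and -0.16. Hexa encodes the α-subunit of β-hexosaminidase, and it had -0.20 (-0.40 to -0.00, adjusted p = 0.420). Hexa lies between Kmt2a and Mto1 on chromosome 9 in the gene order of GRCm38.p6, a stretch bounded from these data. The 205 genes there with a mean above 7.7 had a median log2 difference of -0.35, and 152 of the 205, Hexa included, were at or below the value of Hexa. The share of the stretch in the value of Hexa was not tested.

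The lipid and thioester hydrolase genes did not pass the test in either direction, 0 of 4. At an unadjusted p under 0.05 by limma, 1 was higher and 0 lower, against 6.1% and 7.67% of all genes. Among genes with a mean above 7.7, 9.26% were higher by that rule, and 1228 of 11189 were lower. Ppt1, which removes palmitate from proteins, had log2 values of 11.83, 12.18 and 12.04 in H10 cells, against 12.13, 12.31 and 12.39 in C8 cells. These overlapped, and the log2 difference was -0.26 (95% interval -0.53 to 0.01, adjusted p = 0.443). Differences of the other sign were seen for Smpd1, the acid sphingomyelinase, with 0.22 (0.02 to 0.42), Lipa, the acid lipase for cholesteryl esters, with 0.18 (-0.00 to 0.36), and Asah1, the acid ceramidase, with 0.17 (-0.04 to 0.38). Lipa alone of these had all H10 arrays above all C8 arrays.

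Acp2, the lysosomal acid phosphatase, came closest to the threshold among the genes that did not pass. Its log2 values were 10.98, 10.92 and 10.92 in H10 cells, against 10.66, 10.36 and 10.48 in C8 cells, with no overlap. The log2 difference was 0.44 (95% interval 0.23 to 0.65, adjusted p = 0.0698 from limma), and without C8 replicate 1 the gene passed (log2 difference 0.52, adjusted p = 0.0320). Without any other single array it did not (log2 difference 0.37 to 0.45, adjusted p = 0.159 to 0.230). The protease gene Lgmn, which encodes legumain, had 12.32, 12.76 and 12.63 in H10 cells, against 12.43, 12.39 and 12.61 in C8 cells. The lines overlapped, with a log2 difference of 0.09 (-0.21 to 0.40, adjusted p = 0.885). Tpp1, the tripeptidyl peptidase, had 0.01 (-0.17 to 0.20, adjusted p = 0.979).

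Tfeb and Tfe3 encode transcription factors that bind and activate lysosomal genes. Tfe3 had log2 values of 11.26, 11.28 and 11.19 in H10 cells, against 11.61, 11.55 and 11.62 in C8 cells, so that every H10 array lay below every C8 array. H10 cells averaged 11.24 ± 0.05 (SD, n = 3) against 11.59 ± 0.04 (SD, n = 3) for C8, which is a 1.27-fold difference (log2 difference -0.35, standard error 0.06, adjusted p = 0.0419 from limma). This call did not pass without any 1 of the 6 arrays (adjusted p = 0.0818 to 0.203) or with median centring (adjusted p = 0.0650). Tfeb had 8.87, 8.82 and 8.82 in H10 cells, against 8.92, 8.81 and 8.91 in C8 cells. These values overlapped, with a log2 difference of -0.04 (95% interval -0.19 to 0.10, adjusted p = 0.890). RNA levels do not show where these factors lie in the cell, which is how they are chiefly controlled.

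Among 21 genes of the MiT/TFE family and of mTORC1 control at the lysosome, 1 rose and 0 fell. The rise is 4.76% of the list, against 1.85% of all genes and 2.94% of genes with a mean above 7.7. The gene that rose was Tfec, the family member found mainly in macrophages. Tfec had log2 values of 11.36, 11.2 and 11.2 on the H10 arrays, against 10.45, 10.25 and 10.3 for C8. All H10 values were higher, and the difference was 1.89-fold (log2 difference 0.92, standard error 0.08, adjusted p = 0.00415 from limma). Mitf, another member of the family, was named after its value was seen, and it had a log2 difference of 0.06 (95% interval -0.22 to 0.33, adjusted p = 0.932). Fnip2, a partner of folliculin, and the Rag GTPase gene Rraga had 0.37 (adjusted p = 0.577) and -0.23 (adjusted p = 0.337). Within the family, Tfec was higher, Tfe3 was lower, and Mitf and Tfeb had overlapping values.

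MiT/TFE factors bind DNA at E-box sequences, so the letters upstream of the lysosomal genes that passed the test are shown. They were taken from RefSeq windows of GRCm38.p6 that run from 250 bases before each gene start to 50 after it, and 33 of the 36 genes had such a window, 39 windows in all. The bases before the start are printed, and for Igf2r also the first transcribed base, which ends a motif. For Tfe3 the print stops at the outermost start of the gene. Npc1 is named only. Capitals mark matches to the E-box CACGTG, to its extended form, in which GT precedes CACGTG and AC follows it and which is known from lysosomal promoters, or to TCATGTG, another MITF motif. Matches were sought on both strands, and each extended form holds a CACGTG.
Igf2r, chr17:12769706-12769956, minus strand: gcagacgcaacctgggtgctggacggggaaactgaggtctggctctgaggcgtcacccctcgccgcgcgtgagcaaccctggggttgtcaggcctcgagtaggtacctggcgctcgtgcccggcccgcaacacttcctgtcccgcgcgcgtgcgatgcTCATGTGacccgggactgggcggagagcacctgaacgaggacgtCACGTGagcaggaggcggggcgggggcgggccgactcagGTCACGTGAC
Npc2, chr12:84773113-84773362, minus strand: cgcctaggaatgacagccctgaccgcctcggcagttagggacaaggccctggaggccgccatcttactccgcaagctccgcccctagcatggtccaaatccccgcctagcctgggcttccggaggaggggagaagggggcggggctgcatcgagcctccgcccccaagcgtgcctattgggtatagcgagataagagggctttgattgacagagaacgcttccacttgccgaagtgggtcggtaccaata
Arsb, chr13:93771429-93771678, plus strand: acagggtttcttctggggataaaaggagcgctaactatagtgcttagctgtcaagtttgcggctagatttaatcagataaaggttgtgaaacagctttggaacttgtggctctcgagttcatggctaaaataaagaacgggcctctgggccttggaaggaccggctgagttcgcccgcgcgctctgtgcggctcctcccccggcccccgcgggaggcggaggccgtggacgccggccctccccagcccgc
Tfe3, chrX:7762411-7762529, plus strand: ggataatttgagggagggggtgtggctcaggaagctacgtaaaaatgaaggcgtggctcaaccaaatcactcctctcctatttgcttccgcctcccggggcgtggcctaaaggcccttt

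In the Igf2r window, the extended E-box began 9 bases before the start, a further CACGTG 48 bases before it and TCATGTG 92 bases before it. The windows of Npc2, Arsb and Tfe3 held none of the motifs. Over all 32851 windows, 0.326% held the extended form, 7.15% held CACGTG and 3.77% held TCATGTG. Of the 39 lysosomal windows, the extended form was in 2 (Igf2r and Cln3), CACGTG in 10 and TCATGTG in 5. Cln3 had overlapping values in H10 and C8 cells. The genes with CACGTG were Arsa, Cln3, Gaa, Gla, Glb1, Igf2r, Lamp1, Lgmn, Naglu and Sgsh, of which Igf2r passed the test. A match describes the letters of a window and is not a measured binding site.

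Further lysosomal enzyme genes were taken as a list of 35, of which 28 were measured, 3 rose and 0 fell. The 3 are 10.7% of those measured, against 1.85% of all genes and 2.94% of genes with a mean above 7.7. Smpdl3a, a relative of acid sphingomyelinase, had log2 values of 11.15, 10.95 and 10.97 in H10 cells, against 10.17, 10.52 and 10.33 in C8 cells. The lines did not overlap, and the log2 difference was 0.68 (standard error 0.11, adjusted p = 0.0318 from limma). Pld3, a lysosomal exonuclease, was higher by 0.52 (adjusted p = 0.0484). Acp5, the tartrate-resistant acid phosphatase that is stained as TRACP, had values of 13.87, 13.8 and 13.88 in H10 cells, against 13.5, 13.29 and 13.34 in C8 cells. It was 1.39-fold higher (log2 difference 0.47, adjusted p = 0.0330), and the values in C8 cells, which do not fuse, lay well above the median of all values. With 1 array left out these calls were lost, for Smpdl3a without any array but C8 replicate 2 (adjusted p = 0.0625 to 0.124), for Acp5 without any array but C8 replicate 1 (0.105 to 0.161), and for Pld3 without each of the 6 (0.0658 to 0.200). With median centring only Smpdl3a of the 3 passed, and with quantile normalization only Pld3 and Acp5 (adjusted p = 0.0547 for Smpdl3a). Acp5 was also counted among the osteoclast markers above. Pld4, a relative of Pld3, had a log2 difference of 1.04 with a standard error of 0.25 (adjusted p = 0.129), and Hgsnat, an acetyltransferase of heparan sulfate breakdown, had -0.42 (adjusted p = 0.142).

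Of 36 further membrane proteins and transporters measured, 1 rose, Slc29a3, and 0 fell. That share, 2.78%, is close to the 2.94% of genes with a mean above 7.7 that rose (1.85% of all genes). Slc29a3, a nucleoside transporter of the lysosome, had log2 values of 9.82, 9.88 and 9.92 in H10 cells, against 9.27, 9.15 and 9.23 in C8 cells. The H10 arrays were all higher, by a log2 difference of 0.66 (standard error 0.06, adjusted p = 0.00588 from limma). Slc15a3, a peptide and histidine transporter, had 0.51 (adjusted p = 0.0693), and Mfsd12 had 0.27 (adjusted p = 0.530). Of 17 autophagy genes, 0 passed in limma, with 3 higher and 3 lower at an unadjusted p under 0.05. By that rule 6.1% of all genes were higher and 7.67% lower. Among genes with a mean above 7.7, 9.26% were higher, and 1228 of 11189 were lower. The largest differences of the 17 autophagy genes were 0.55 for Plekhm1, an adaptor for lysosome fusion and osteoclast secretion (adjusted p = 0.0892), and -0.49 for Uvrag (adjusted p = 0.103). With dim features left out before the test, 1 autophagy gene was higher by limma, Plekhm1 (adjusted p = 0.0343). Lower were 3, Uvrag among them (adjusted p = 0.0405), where 4.58% of the genes tested were higher and 3.76% lower. That filter gave 3 higher among the further membrane proteins and transporters, Slc15a3 included (adjusted p = 0.0255). Plekhm1 also passed without H10 replicate 1 (adjusted p = 0.0453). The medians of these lists were 0.09 for further enzymes, 0.02 for further membrane proteins, 0.04 for tagging and sorting, 0.05 for MiT/TFE and mTORC1 genes and 0.01 for autophagy genes.

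**Figure D4:**
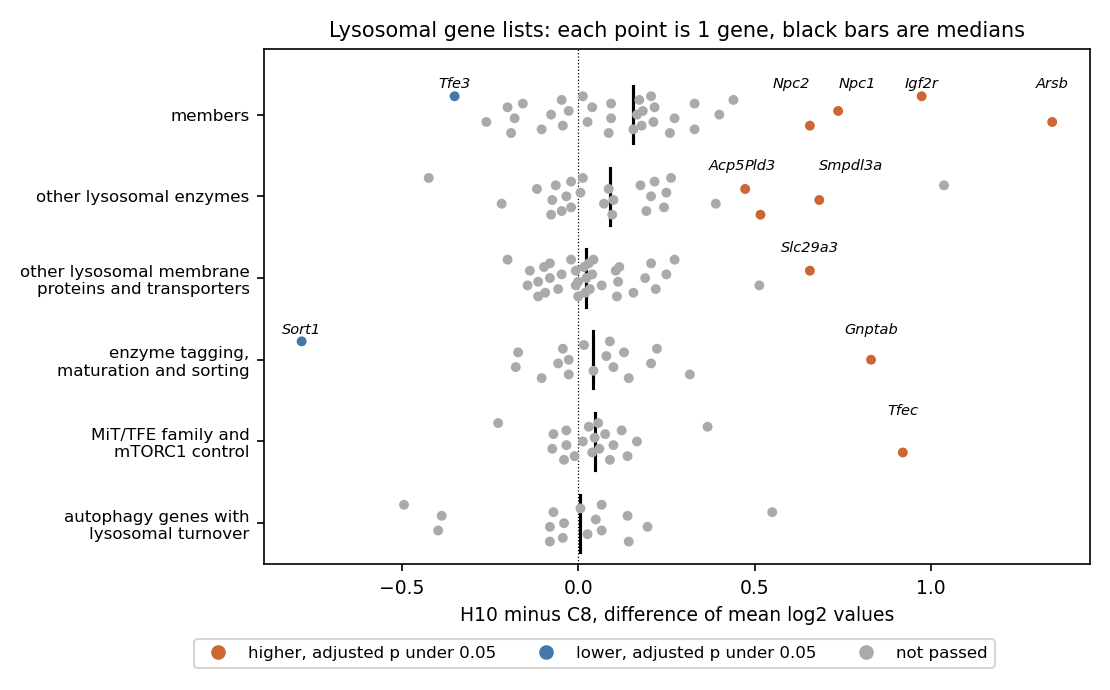
Difference of mean log2 values, H10 minus C8, for each gene of the 35 lysosomal genes (members) and of 5 further lists, with a bar at the median of each list and the vertical position within a list without meaning. Genes that passed the test are named, and most others lie within 0.5 of 0.

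The lysosomal genes varied between arrays of a line about as much as other genes. The median SD within a line was 0.101 for the 35 genes and 0.0952 for all genes, from 0.0316 for Man2b1 to 0.227 for Gla. Arrays were not alike in this. H10 replicate 1 alone was the lowest H10 array for 25 of the 35 genes (71.4%), against 31.1% of all genes. On the second principal component of all values, which held 22.2% of the variance, the replicate 1 arrays of both lines stood apart from the other 4. Without both of them, Arsb, Igf2r, Npc1 and Npc2 rose, Tfe3 did not pass (adjusted p = 0.149), and the median log2 difference of the 35 genes was 0.18.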

How the data were processed

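Expression was measured on Affymetrix Mouse Gene 1.0 ST arrays, 3 of H10 and 3 of C8 cells. The authors normalized raw intensities with RMA and deposited log2 values of 35545 features. Affymetrix Expression Console is named in the submitters' processing notes without a version. The deposited values entered the fit as they were. Of the features, 21781 carry 1 symbol in the platform annotation and stood for genes, 1621 carry several symbols, and 12143 carry none. Entrez identifiers of all 35 measured members matched the GRCm38.p6 gene table, with 0 symbols changed. Lines were compared with limma 3.58.1 (lmFit, eBayes) in R 4.3.3, two-sided, with Benjamini-Hochberg adjustment over all features and a threshold of 0.05. The script was tested on simulated data. Exact permutation of 3 against 3 arrays cannot go below 0.1. Depth has no counterpart on arrays, and their number limits the precision. Members, lists and tests were chosen with earlier results of these data known. Values on every array are given for members past the threshold, Tfeb, Tfe3, Lamp1 and Lamp2, and, in each role group with none past it, the member with the largest difference. From other lists up to 4 genes past the threshold in each direction and 2 others are named. Alternatives were a filter on dim features, leaving out arrays, median centring, a replicate block, quantiles, a trended robust prior, other adjustments and other features per gene. Python 3.11.15 and matplotlib 3.10.9 served for sequences and figures.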

Additional observations from a re-analysis of the deposited data

How the results depend on the processing

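Arsb, Igf2r and Npc1 passed the test in all 15 refits run for them (highest adjusted p 0.0288, 0.0436 and 0.0486, limma). Npc2 was lost in 6 and Tfe3 in 9, and Acp2 passed in 4. The cause of these changes was not tested.

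The count of lysosomal genes that rose was 3 to 5 when 1 array was left out, and that of genes that fell was 0 each time. Over all genes those counts were 152 to 346 higher and 40 to 126 lower. Among lysosomal genes, 0 fell without the replicate 1 arrays of both lines (78 of all genes), with the replicate block (71) and with median centring (155). At an adjusted p under 0.01 the counts were 3 and 0, and 164 and 50 over all genes. Leaving dim features out before the test gave 5 and 1, beside 516 higher (4.58%) and 423 lower (3.76%) of the 11256 genes then tested. The difference of Lgmn turned to -0.0017 without H10 replicate 2, within a range of -0.0017 to 0.2183 over single arrays left out.

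Deviations from the line means correlated at 0.166 between the replicate 1 arrays, -0.0043 between the replicate 2 and -0.121 between the replicate 3 arrays, and 2 of 6 arrays were closest to their own number. Not every pair was over 0.1, so the numbers were not taken to pair the arrays. With the replicate block, 225 genes were higher, and 3 lysosomal genes rose (Arsb, Igf2r and Npc1). Smpdl3a, Pld3 and Acp5 did not pass with it (adjusted p = 0.0849 to 0.130). A background level was not estimated here, so a weak signal and none were not told apart.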
